A study of Mus musculus with 74 samples.

Results

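The mitochondrial ribosomal protein genes were taken as all genes of the count table whose mouse symbol is Mrpl or Mrps followed by a number, with 5 symbols ending in -ps dropped. This gave 78 of 55487 genes, 49 with an Mrpl and 29 with an Mrps symbol. By the position of the protein in the mammalian mitochondrial ribosome, 51 belong to the large subunit and 26 to the small subunit, and 1, Mrps36, encodes a protein now known as part of the oxoglutarate dehydrogenase complex. Their RNA was measured in adipocytes of brown adipose tissue (BAT) and of inguinal white adipose tissue (WAT) of Adiponectin-Cre:NuTRAP mice at 6 zeitgeber times (ZT1, ZT5, ZT9, ZT13, ZT17 and ZT21). NuTRAP is a reporter that Cre recombinase switches on and that tags ribosomes with GFP and nuclei with a surface label, and the Adiponectin promoter drives Cre in fat cells of both kinds, so that BAT and WAT libraries carry the same alleles. Ribosome-bound RNA was pulled down with antibodies to GFP from homogenates of whole depots, in 17 BAT and 18 WAT libraries, 3 for each time apart from BAT at ZT17 with 2. Open chromatin was mapped by ATAC-seq of sorted nuclei in 18 libraries per depot at the same times, and the clock factor BMAL1 was mapped by ChIP-seq in inguinal fat of C57BL6J mice at ZT4 in 2 libraries. The labels used here give no diet, feeding schedule, age or sex for these samples. They do not say whether numbered libraries came from separate mice, and p-values then measure only the spread between these libraries.

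Mitochondria translate the few proteins that their own genome encodes, all of them subunits of the respiratory chain and of ATP synthase, on ribosomes built from mitochondrially encoded ribosomal RNA and from proteins encoded in the nucleus. The nuclear mRNAs are translated in the cytosol and the proteins imported, so that a pulldown of cytosolic ribosomes reports the mRNAs of these proteins and not the mitochondrial ribosome itself. Some of the proteins have counterparts in bacterial ribosomes and others are found only in mitochondria. Brown adipocytes are rich in mitochondria and burn fuel through a respiratory chain uncoupled by Ucp1, while white adipocytes store fat and hold fewer mitochondria.

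The libraries differed in depth and content between the depots. Total counts were 4980150 to 46274400 per BAT library and 1301520 to 6481150 per WAT library, and the 78 genes took 1.31 to 1.47% of BAT counts and 0.177 to 0.754% of WAT counts. The median member had 566.5 to 7518.5 counts per BAT library and 39.5 to 256.5 per WAT library, so that values in WAT are the less precise. Ribosomal RNA loci stand here for CT010467.1, Gm42418 and Lars2, of which Lars2 also encodes the mitochondrial leucyl-tRNA synthetase. These loci took 0.813 to 4.64% of BAT counts and 5.26 to 66.0% of WAT counts. In 3 WAT libraries (replicate 3 of ZT5, replicate 3 of ZT9 and replicate 2 of ZT17) they had more than 50% of the counts. Mitochondrially encoded genes took 0.126 to 2.25% of BAT counts and 0.685 to 27.6% of WAT counts. Adipocyte markers (Adipoq, Plin1, Fabp4, Cidec, Lipe and Pparg) summed to 27080 to 65985 CPM (counts scaled by library size with TMM factors) in BAT and 9192 to 74944 CPM in WAT. All 5 brown adipocyte markers, Ucp1 among them, rose in BAT at 2-fold or more, and 3 of 4 white adipocyte markers fell. Markers of other cells differed in both directions. The 6 fibroblast and progenitor markers summed to 8.14 to 67.4 CPM in BAT and 127 to 1103 CPM in WAT. The 6 lymphocyte markers summed to at most 0.680 CPM in BAT and to 20.4 to 219 CPM in WAT, and 5 macrophage markers summed to 8.68 to 18.5 CPM in BAT and 22.5 to 174 CPM in WAT. The 5 muscle markers went the other way, with 3 of 5 rising in BAT, and summed to 21.9 to 633 CPM in BAT (median 96.0) and 5.86 to 409 CPM in WAT (median 51.3). The part of other cells in the differences described here was not tested. In such bulk samples fewer cells of a type and less RNA per cell cannot be told apart.

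Mitochondrial ribosomal protein genes as a group were higher in BAT than in WAT. Their summed level was 12183 ± 1637 CPM in BAT (SD, n = 17) and 4844 ± 2228 CPM in WAT (SD, n = 18), and ran over 9854 to 15202 CPM in BAT and 2224 to 9032 CPM in WAT without overlap. Of the 78 genes, 69 rose in BAT by at least 2-fold at an adjusted p under 0.05 and 0 fell by that much, where 23.1% of the 10999 genes tested were called higher and 24.2% lower. The difference was tested with edgeR's quasi-likelihood test with time as a factor and Benjamini-Hochberg adjustment over all genes tested. The median log2 difference (BAT minus WAT) was 1.79 for the members and 0.04 for all genes. In 53 members every BAT library lay above every WAT library, a pattern found in 11.3% of all genes tested. Without any fold limit, 71 members were called higher, beside 38.4% of all genes, and 2 lower, beside 36.8%, while 5 passed in neither direction. The large subunit (45 of 51 called higher, median log2 difference 1.78) and the small subunit (23 of 26, median 1.77) had like values. Proteins with a bacterial counterpart (43 of 48, median 1.89) and those without one (25 of 29, median 1.71) likewise had most members called.

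**Figure D1:**
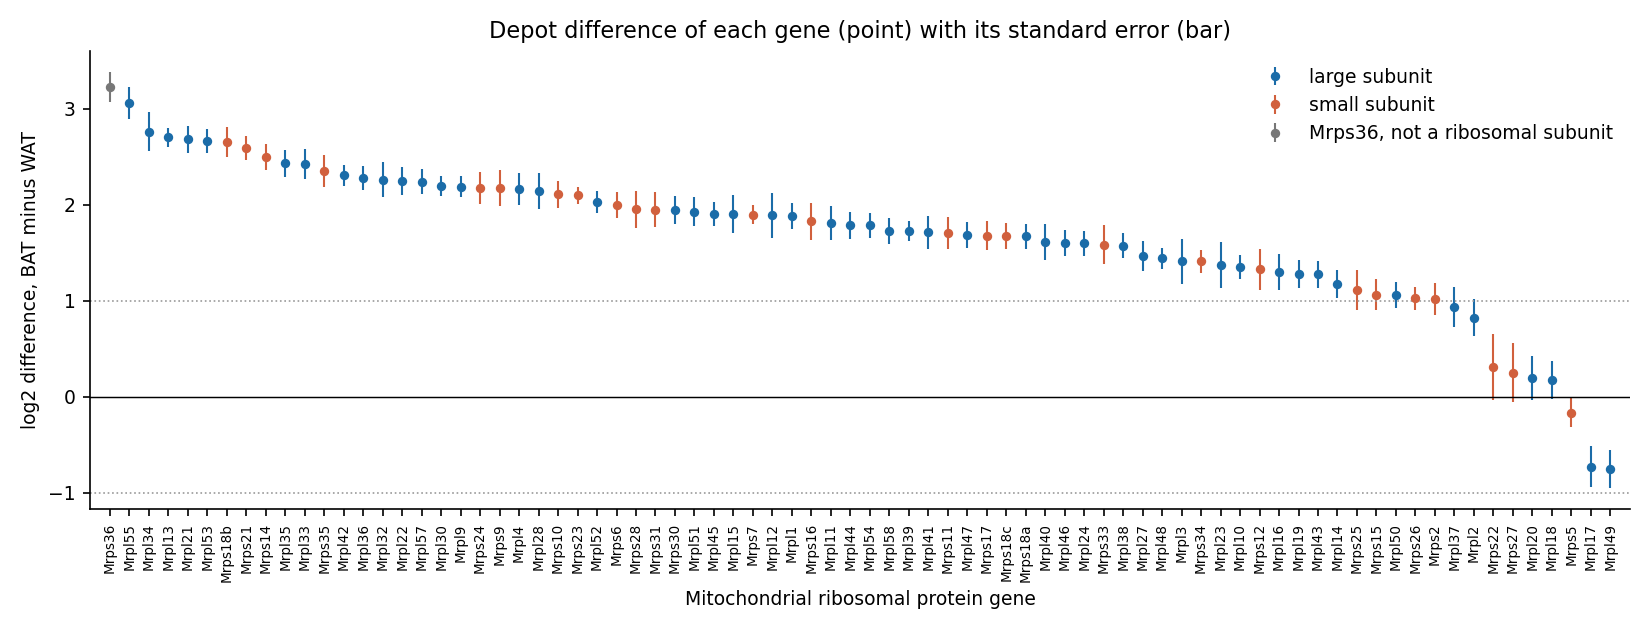
Log2 difference of each of the 78 genes between BAT and WAT libraries (y axis, BAT minus WAT) in order of size, with its standard error as a bar and the subunit as colour; dotted lines mark a 2-fold difference. Most genes lie above the upper dotted line, from Mrps36 at 3.23 downward, and Mrpl17 and Mrpl49 at the right end lie near −0.7.

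Among large-subunit genes, Mrpl55 had the greatest difference. It had 120 to 212 CPM in BAT (median 145) and 7.80 to 33.1 CPM in WAT (median 16.8), a log2 difference of 3.06 ± 0.17 (SE; adjusted p 2.6e-18 by edgeR). The lowest BAT library thus stood well above the highest WAT library. Mrpl34, a small protein of the subunit, had 66.5 to 253 CPM in BAT (median 162) and 8.67 to 40.5 CPM in WAT (median 24.2), a log2 difference of 2.76 ± 0.20. Mrpl13 was steadier between libraries of a depot, with 154 to 216 CPM in BAT (median 191) and 21.7 to 43.1 CPM in WAT (median 28.4), and differed by 2.7 ± 0.10. Neither gene overlapped between the depots. Mrpl21 followed at 2.68 ± 0.14 and Mrpl53, a protein found only in mitochondria, at 2.67 ± 0.13. The stalk of the large subunit recruits elongation factors and is built of Mrpl10, Mrpl11 and Mrpl12. Mrpl12, which has also been reported to bind the mitochondrial RNA polymerase, had 694 to 1881 CPM in BAT (median 1188) and 98.5 to 976 CPM in WAT (median 249). The ranges of Mrpl12 overlapped, because the WAT libraries reached up into the BAT range, and its log2 difference was 1.89 ± 0.23 (adjusted p 4.5e-09 by edgeR). Its anchor Mrpl10 differed by 1.35 ± 0.12, and Mrpl11 at the stalk base by 1.81 ± 0.18. Mrpl45, which lies at the exit tunnel and holds the ribosome to the inner membrane, rose by 1.90 ± 0.13 on the log2 scale. Mrpl44, which carries a ribonuclease III fold, rose by 1.79 ± 0.14, and Mrpl58, a peptidyl-tRNA hydrolase that rescues stalled ribosomes, by 1.73 ± 0.14. Mrps18a and Mrps30 sit in the large subunit despite their symbols and rose by 1.67 ± 0.13 and 1.95 ± 0.15.

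A few large-subunit genes went the other way or did not pass. Mrpl49 had 33.0 to 78.1 CPM in BAT (median 41.5) and 14.5 to 178 CPM in WAT (median 67.4), with a log2 difference of −0.75 ± 0.19 (adjusted p 0.00076 by edgeR). Mrpl17, which lies near the exit tunnel, had 201 to 549 CPM in BAT (median 278) and 166 to 1513 CPM in WAT (median 416), with a log2 difference of −0.73 ± 0.21 (adjusted p 0.0023 by edgeR). Both were lower in BAT by less than 2-fold, and the BAT range of each lay within its WAT range. Mrpl18, the counterpart of a bacterial protein that binds the small ribosomal RNA of the large subunit, had a log2 difference of 0.18 ± 0.20 that did not pass (adjusted p 0.42 by edgeR). Mrpl20, named among the most abundant members below, had 189 to 560 CPM in BAT and 99.3 to 826 CPM in WAT, and its difference of 0.19 did not pass either.

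In the small subunit, Mrps18b and Mrps21 led. Mrps18b and Mrps18c are the small-subunit members of a family of 3 paralogs, and their log2 differences were 2.65 ± 0.15 and 1.67 ± 0.13. Mrps21 had 235 to 400 CPM in BAT (median 333) and 32.7 to 103 CPM in WAT (median 48.5), a log2 difference of 2.59 ± 0.12 (adjusted p 5.4e-20 by edgeR) without overlap. Mrps12, part of the decoding centre, had 218 to 520 CPM in BAT (median 351) and 51.4 to 361 CPM in WAT (median 125), with overlapping ranges and a log2 difference of 1.33 ± 0.22. Mrps34, needed in mice for a stable small-subunit ribosomal RNA, had 117 to 157 CPM in BAT (median 131) and 30.1 to 96.9 CPM in WAT (median 48.9), a difference of 1.41 ± 0.12 without overlap. Mrps5, at the mRNA entrance, had 35.4 to 68.9 CPM in BAT (median 44.2) and 23.5 to 107 CPM in WAT (median 53.3), and its difference did not pass (−0.16 ± 0.15, adjusted p 0.31 by edgeR). Mrps22 and Mrps27, found only in mitochondria, had few counts and did not pass. Mrps22 had 1.04 to 9.97 CPM in BAT and 0 to 8.35 CPM in WAT (0.31 ± 0.34, adjusted p 0.41 by edgeR). Mrps36, the gene with a ribosomal name and another role, had the greatest difference of all 78, with 139 to 247 CPM in BAT (median 204) and 9.58 to 46 CPM in WAT (median 19), a log2 difference of 3.23 ± 0.16 (adjusted p 1.3e-19 by edgeR).

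Length-scaled levels were taken from the authors' deposited TPM table, which scales counts by transcript length and library size. In BAT the order from the top by median was Mrps21 with 977, Mrpl12 with 792, Mrps12 with 685, Mrpl2 with 601 and Mrps33 with 575 TPM. In WAT it was Mrpl20 with 610, Mrpl17 with 527, Mrps12 with 475, Mrpl12 with 214 and Mrpl2 with 213 TPM. Mrps12, Mrpl12 and Mrpl2, a protein of the peptidyl transferase centre, stood among the top 5 in both depots, while Mrps21 ranked 1 in BAT and 9 in WAT. The TPM ranges of neighbours in these orders overlapped: in BAT Mrpl12 ran over 592 to 1018 and Mrps12 over 476 to 1135 TPM. The same 3 genes were lowest in both depots. Mrpl19 had a median of 5.90 TPM in BAT and 2.78 TPM in WAT. Mrps22 had 2.89 TPM in BAT and 2.78 TPM in WAT, where 2 libraries were left blank, and Mrps27 had 1.83 TPM in BAT and 2.69 TPM in WAT, where 1 was.

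Other gene lists are given beside the 69 of 78 ribosomal protein genes called higher; no test between lists was made. Of 5 mitochondrial ribosomal proteins with other symbols, 4 rose in BAT at 2-fold or more (median 1.71), with Chchd1 at 2.12 and Ptcd3 at 1.92, and Dap3 had 0.68. Of 11 translation factors tested, 7 rose (median 1.11), including the elongation factors Tufm and Gfm1 at 2.05 each, and the recycling factor Mrrf had −0.18. Assembly factors rose in 14 of 22 (median 1.17), with the GTPase Mtg1 at 2.67 and the methyltransferase Mrm3 at 2.65. The lowest of them, the helicase Ddx28, had −0.52. Mitochondrial aminoacyl-tRNA synthetases rose in 11 of 16 (median 1.16), with Fars2 at 2.01 and Yars2 at 1.99, and Wars2 had 0.18. Mitochondrial transcription and RNA genes rose in 9 of 14 (median 1.49), with Tfam, which packages mitochondrial DNA, at 2.06, Pnpt1 at 1.88, and Mterf1a at −0.91. Of 11 regulators of mitochondrial biogenesis 4 rose (median 0.18), with Ppara at 3.32 and Esrra at 2.51, and Yy1 had −0.84. Membrane insertion and quality control genes rose in 11 of 12 (median 1.80), led by the protease subunit Clpx at 2.32 and the chaperone Hspd1 at 2.22, with Letm1 at 0.69. Nuclear-encoded subunits of the respiratory chain and ATP synthase rose in 77 of 81 and fell in 2 (median 2.80). Cytosolic ribosomal proteins rose in 6 of 80 and fell in 4 (median −0.06). All 15 mitochondrially encoded genes tested fell in BAT (median −5.09). Those RNAs are not translated on cytosolic ribosomes, and their share of counts differed between single libraries as given above.

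The second question was whether the members follow the time of day. A cosine and a sine with a period of 24 h were fitted in each depot by edgeR and tested together, and the size of a rhythm is the log2 difference between fitted peak and trough. In BAT 2 of 78 members were called, where 9.17% of the 12394 genes tested were. The median size was 0.35 for the members and 0.49 for all genes, and 24 members had an unadjusted p under 0.05, beside 32.5% of all genes. Mrps6, which lies on the platform of the small subunit, had 188, 173 and 187 CPM at ZT1, 179, 199 and 176 at ZT5, and 152, 119 and 147 at ZT9. Between ZT12 and ZT24, the dark phase of a usual light cycle (no schedule stands in the labels), it had 120, 119 and 130 CPM at ZT13, 128 and 136 at ZT17, and 158, 139 and 131 at ZT21. The 6 libraries of ZT1 and ZT5 lay above all others, and the fit gave a size of 0.66 ± 0.11 with a peak at 2.80 h (adjusted p 0.0049 by edgeR). It was called whichever BAT library was left out. In WAT Mrps6 was not called (size 0.61 ± 0.36, peak at 1.87 h, adjusted p 0.47 by edgeR). Mrps27 had a size of 1.46 ± 0.37 with a peak at 0.38 h (adjusted p 0.042 by edgeR), but its level was only 1.21 to 11.4 CPM and it was called in 5 of the 17 fits that left out 1 library. With the share of ribosomal RNA loci as a covariate, Mrps6 kept its call (0.57, adjusted p 0.010 by edgeR), while Mrps27 had 0.59 and an adjusted p of 0.39.

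The fitted BAT peaks fell around opposite times of day: 40 members (51.3%) peaked within 3 h of ZT12 and 26 (33.3%) within 3 h of ZT0, beside 30.7% and 37.6% of all genes tested. The split was also 40 and 26 members with DESeq2 size factors or without mitochondrial and ribosomal RNA loci. With the share of ribosomal RNA loci as a covariate it was 26 and 19 members, beside 26.4% and 27.6% of all genes. The authors' deposited table lists TPM and uses another rhythm statistic, JTK. There 16 members had a JTK lag within 3 h of 12 h, beside 11.9% of all genes listed. A lag within 3 h of 0 h was listed for 59 members (75.6%), beside 66.8% of all genes. A single library decided how many of these were called. Without BAT ZT21 replicate 2, whose share of ribosomal RNA loci was the highest in BAT (4.64%), 35 members were called, beside 27.4% of all genes in that fit. Of these, 25 peaked within 3 h of ZT12 and 10 within 3 h of ZT0. Leaving out any of 12 other BAT libraries (ZT1 replicates 2 and 3, ZT5 replicate 1, ZT9 replicates 2 and 3, and every library of ZT13 and ZT17, with ZT21 replicates 1 and 3) gave 1 call, Mrps6.

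In WAT 22 of 78 members were called rhythmic, 12 of the large and 10 of the small subunit, where 9.90% of the 12703 genes tested were. All 22 had a fitted peak between 17.5 and 20.8 h, in the dark phase, while 6.05% of all genes tested were called with a peak between ZT17 and ZT21. Their sizes ran over 1.13 to 2.30, with a median of 1.5, although the median over all 78 members (0.89) was below that of all genes (0.98). The summed level of the 78 genes in WAT averaged 3685, 3423, 4003 and 3317 CPM at ZT1, ZT5, ZT9 and ZT13, then 7396 ± 2137 CPM at ZT17 and 7242 ± 1590 CPM at ZT21 (SD, n = 3 each). In BAT the same sum averaged 10619, 11591, 13509, 12946, 12353 and 12136 CPM in the order of the times. Abundant members weigh most in these sums. In WAT the median of Mrpl17 was 1084 CPM at ZT17 and ZT21 and 306 CPM at other times, and that of Mrpl12 866 and 204 CPM. Other members did not rise: Mrps7 had 37.2 and 38.7 CPM and Mrpl9 34.8 and 38.1 CPM in the same order.

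**Figure D2:**
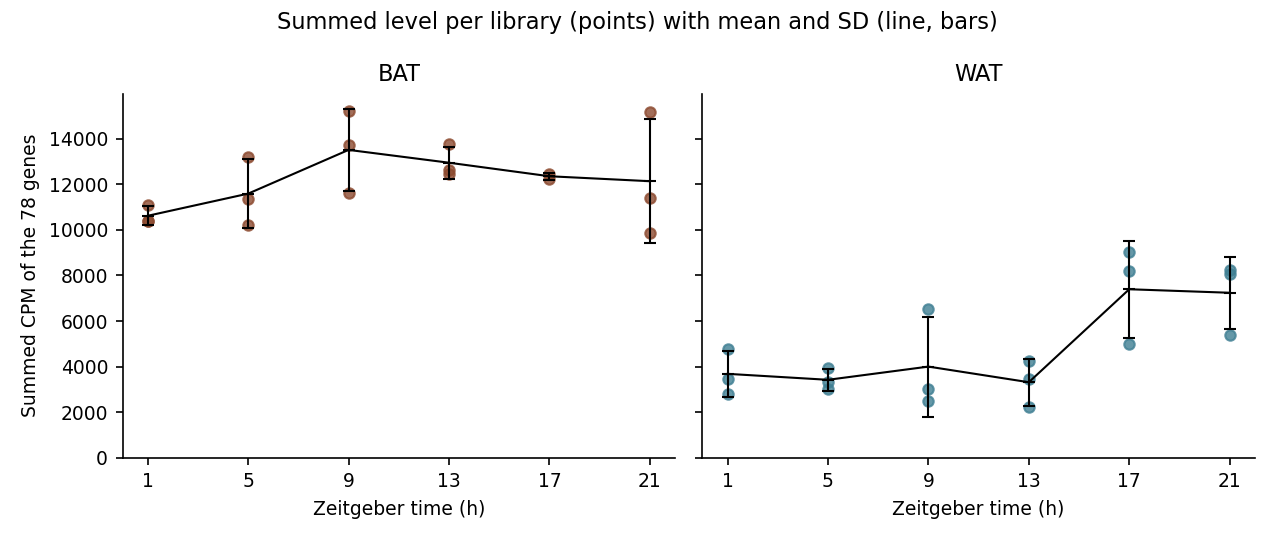
Summed CPM of the 78 genes (y axis) against zeitgeber time (x axis) in BAT at left and WAT at right, 1 point per library, with the mean as a line and the SD as bars. The WAT libraries of ZT17 and ZT21 hold most of the upper values, and 1 ZT9 library reaches into their range.

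The 3 WAT rhythms with the smallest p were those of Mrps15, Mrpl12 and Mrps16. To show what precedes each gene, the 250 bases before its start site are printed from RefSeq on GRCm38.p6 (mm10), 5′ to 3′ on the strand of the gene. Capitals mark matches to 2 motifs among those listed further on, GGGCGG or its reverse complement for SP1 and the site of NRF1, a regulator of nuclear genes for mitochondria. Mrps15 lies on the plus strand (chr4:126046678-126046927), Mrpl12 on the plus strand (chr11:120484387-120484636) and Mrps16 on the minus strand (chr14:20393635-20393884, before the outermost of its 2 start sites).
Mrps15: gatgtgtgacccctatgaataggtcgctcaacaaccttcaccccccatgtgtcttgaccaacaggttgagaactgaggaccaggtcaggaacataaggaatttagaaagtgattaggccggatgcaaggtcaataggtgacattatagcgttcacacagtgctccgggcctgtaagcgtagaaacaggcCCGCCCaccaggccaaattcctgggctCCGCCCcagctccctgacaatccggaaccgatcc
Mrpl12: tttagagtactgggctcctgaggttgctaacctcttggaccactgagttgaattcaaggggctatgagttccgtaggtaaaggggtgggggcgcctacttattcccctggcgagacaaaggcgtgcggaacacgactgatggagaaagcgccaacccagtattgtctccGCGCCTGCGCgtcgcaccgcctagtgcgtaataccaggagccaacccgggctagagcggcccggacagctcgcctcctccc
Mrps16: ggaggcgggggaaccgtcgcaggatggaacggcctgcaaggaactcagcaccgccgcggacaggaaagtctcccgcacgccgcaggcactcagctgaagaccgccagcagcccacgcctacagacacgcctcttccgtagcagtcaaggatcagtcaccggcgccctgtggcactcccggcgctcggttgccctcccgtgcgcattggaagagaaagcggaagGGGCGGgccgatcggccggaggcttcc

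Mrps15, the counterpart of a bacterial protein that binds ribosomal RNA early in assembly, had 43.4, 62.8 and 38.6 CPM at ZT1, 29.5, 38.4 and 29.5 at ZT5, 29.5, 31.3 and 48.5 at ZT9 and 38.0, 27.0 and 34.5 at ZT13. At ZT17 it had 95.9, 63.2 and 98.7 CPM and at ZT21 118, 88.1 and 110 CPM. All 6 libraries of ZT17 and ZT21 lay above the other 12, and the fit gave a size of 1.86 ± 0.30 with a peak at 19.8 h (adjusted p 0.0018 by edgeR). Mrpl12 of the stalk had 259, 395 and 209 CPM at ZT1, 195, 141 and 240 at ZT5, 176, 104 and 405 at ZT9 and 200, 98.5 and 238 at ZT13. At ZT17 it had 848, 454 and 883 CPM and at ZT21 965, 484 and 976 CPM. Again the 6 later libraries stood above the others, and its size was the greatest of the members at 2.30 ± 0.44, with a peak at 19.6 h (adjusted p 0.0053 by edgeR). Mrps16, mutated in a human mitochondrial disease, had 46.6, 82.3 and 41.8 CPM at ZT1, 30.9, 28.6 and 52.1 at ZT5, 44.2, 28.7 and 57.6 at ZT9 and 46.8, 21.9 and 53.1 at ZT13. At ZT17 it had 127, 71.5 and 160 CPM and at ZT21 119, 70.7 and 139 CPM. ZT1 replicate 2 overlapped with the later libraries, and the fit gave 1.89 ± 0.36 with a peak at 19.3 h (adjusted p 0.0063 by edgeR). Mrps25, found only in mitochondria, had 162 to 325 CPM in the libraries of ZT17 and ZT21 and 45.8 to 158 CPM in the other 12, with a size of 2.00 ± 0.39 (adjusted p 0.0066 by edgeR). A gap between ZT17 and ZT21 and all other libraries was found in 3 members, Mrpl12, Mrps15 and Mrps25, and in 0.992% of all genes tested.

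**Figure D3:**
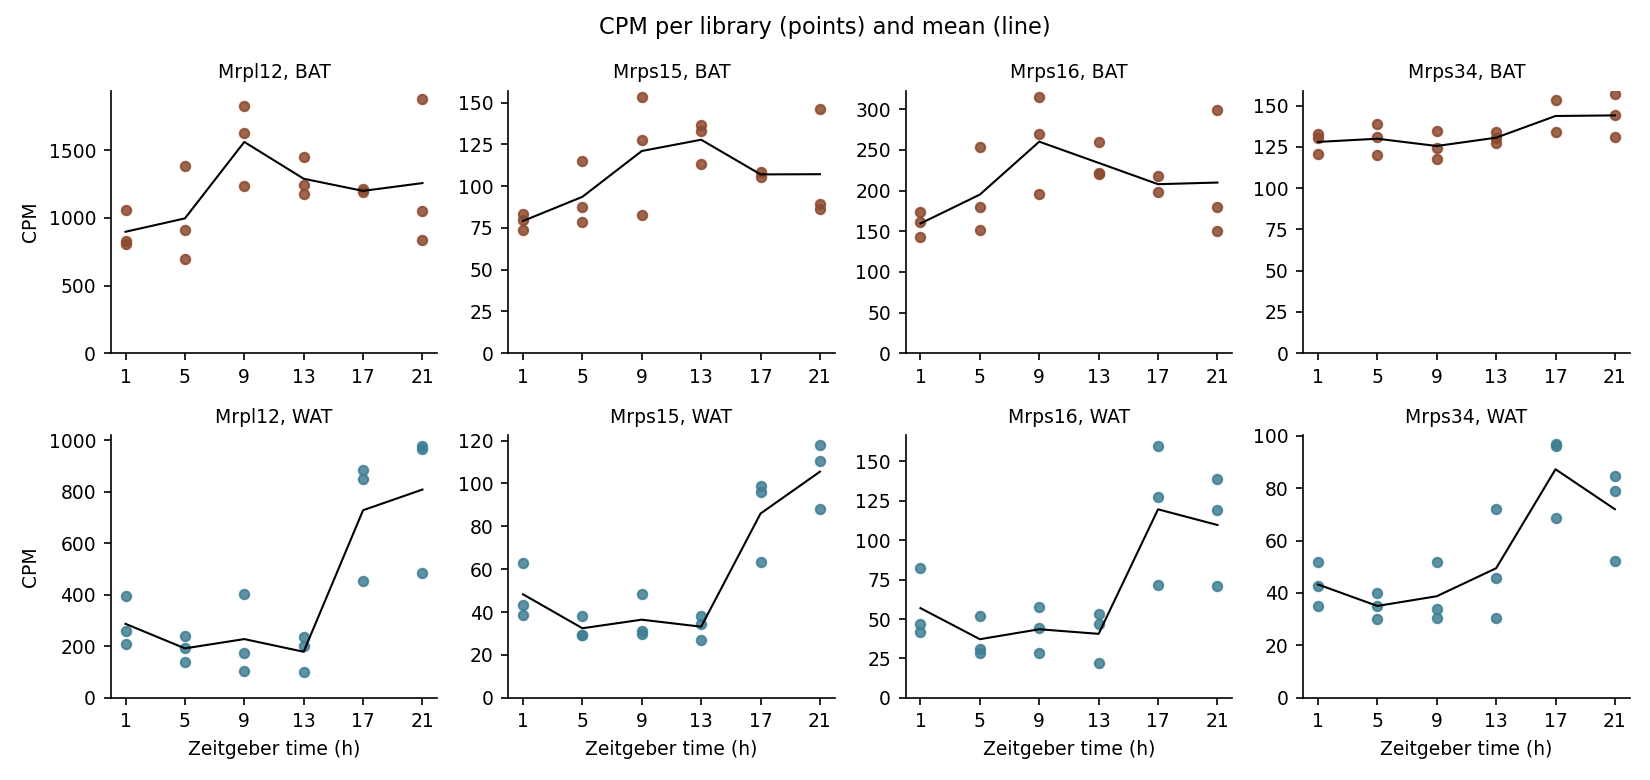
CPM (y axis) of Mrpl12, Mrps15, Mrps16 and Mrps34 against zeitgeber time (x axis), with BAT in the upper row and WAT in the lower, 1 point per library and the mean as a line; each panel has its own scale from 0. In WAT the means of the 4 genes are highest at ZT17 or ZT21, and in BAT those of Mrpl12, Mrps15 and Mrps16 are highest at ZT9 or ZT13.

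Mrps34 was called with a size of 1.43 ± 0.28 and a peak at 18.4 h (adjusted p 0.0076 by edgeR). Mrpl15, a core protein of the large subunit, had 1.62 ± 0.36 at 19.4 h (adjusted p 0.014 by edgeR), Mrps12 1.78 (adjusted p 0.024) and Mrpl11 1.42 (adjusted p 0.032). Mrps15, Mrpl12, Mrps16, Mrps25 and Mrps34 kept their calls whichever WAT library was left out. The count of 22 was less stable. It was 6 without ZT9 replicate 2, 7 without ZT5 replicate 2, ZT17 replicate 3, ZT21 replicate 1 or ZT21 replicate 3, 8 without ZT17 replicate 1 and 10 without ZT5 replicate 1. It was 11 without ZT9 replicate 1, 12 without ZT13 replicate 3 and 14 without ZT1 replicate 1 or 2. Without the 3 libraries that had most of their counts on ribosomal RNA loci it was 36. The share of all genes called moved with it: it was 3.69% without ZT9 replicate 2, 3.47% without ZT21 replicate 1, at most 6.91% in the others of these single-library fits, and 19.7% without the 3 libraries.

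Library content in WAT moved with time as well. The median share of counts from mitochondrial DNA was 4.53% in the 6 libraries of ZT17 and ZT21 and 16.1% in the other 12, while ribosomal RNA loci took 19.6% in those of ZT17 and ZT21 and 20.1% in the others. The 6 adipocyte markers summed to 35297 to 74944 CPM at ZT17 and ZT21 (median 69109) and to 9192 to 56722 CPM at other times (median 18055). Fibroblast and progenitor markers had a median of 317 CPM at ZT17 and ZT21 and 600 CPM at other times, with overlapping ranges. Lymphocyte markers had 29.3 CPM at ZT17 and ZT21 and 120 CPM at other times, and macrophage markers 47.4 CPM and 109 CPM in the same order. With the mitochondrially encoded share as a covariate 7 members stayed called, Mrps15, Mrpl12, Mrps16, Mrps25 and Mrps34 among them. The part of adipocyte content in the remaining calls was not tested.

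Across libraries Mrpl12 followed library content in both depots, in different ways. In BAT its log2 CPM rose with the log2 share of ribosomal RNA loci (n = 17, Pearson r 0.94 and Spearman rho 0.95). Each permutation p was 1e-05, the smallest that the permutations can give, and 2.7e-05 adjusted over the 8 tests of 4 relations. Without the 2 libraries farthest from the median share r was 0.94. In WAT it fell with the log2 share of mitochondrially encoded genes (n = 18, Pearson r −0.80, permutation p 1e-05, adjusted 2.7e-05, and Spearman rho −0.83, permutation p 4e-05, adjusted 8e-05), with r −0.73 without the 2 farthest. The remaining 2 relations had r 0.02 (BAT, mitochondrial share, permutation p 0.95) and r 0.08 (WAT, ribosomal RNA loci, permutation p 0.77). The labels give no sequencing batch within which to repeat these relations. As a description over genes that share libraries and depth, 40 of 78 members (51.3%) had r above 0.5 with the ribosomal RNA share in BAT and 25 (32.1%) had r under −0.5, beside 27.6% and 26.6% of all genes. With the mitochondrial share in WAT 38 members (48.7%) had r under −0.5 and 3 had r above 0.5, beside 19.2% and 23.2% of all genes. The share of ribosomal RNA loci in BAT averaged 1.03 ± 0.31% at ZT1 and 3.01 ± 1.20% at ZT9 (SD, n = 3 each), so that it also moved with time.

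**Figure D4:**
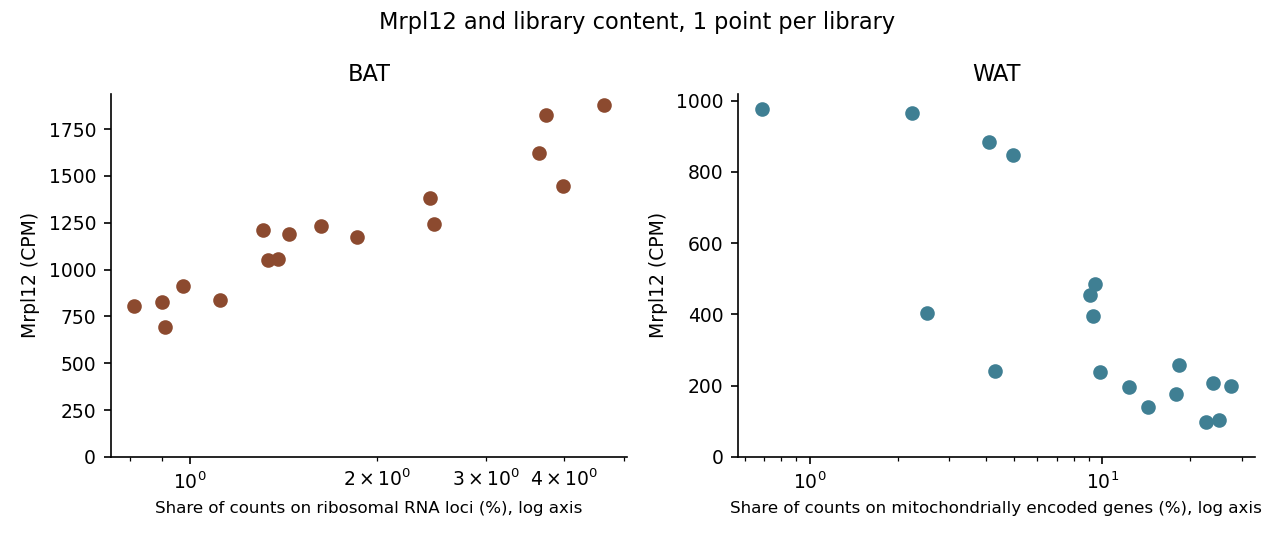
CPM of Mrpl12 (y axis), 1 point per library, against the share of counts on ribosomal RNA loci in BAT (left, log axis) and on mitochondrially encoded genes in WAT (right, log axis). Mrpl12 climbs with the first share (r 0.94) and declines with the second (r −0.80).

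A call in 1 depot alone shows no difference between depots, so the difference of the fitted curves was tested as an interaction in edgeR. It passed in 21 of 78 members, where 12.9% of the 10999 genes tested passed, and 18 of the 21 were among those called in WAT. Its size here is the amplitude of the difference between the 2 curves on the log2 scale. Mrps15 came first with 0.96 ± 0.17 (adjusted p 0.0051 by edgeR): its fitted size was 0.57 with a peak at 13.2 h in BAT and 1.86 at 19.8 h in WAT. Mrps16 had 0.99 (adjusted p 0.010), with a size of 0.51 at 12 h in BAT and 1.89 at 19.3 h in WAT. Mrpl12 had 1.17 (adjusted p 0.013), with 0.54 at 12.8 h in BAT and 2.30 at 19.6 h in WAT. All 3 thus had a smaller and earlier fitted peak in BAT, although none was called there. Sizes were smaller in BAT over all genes tested too, with medians of 0.49 in BAT and 0.98 in WAT. In the authors' deposited tables their JTK lags were 14, 12 and 12 h in BAT and 20, 18 and 20 h in WAT. None of the 3 had a JTK q-value under 0.05 in either depot, so these lags are uncertain. Mrps28 (0.95, adjusted p 0.011), Mrps31 (0.92, adjusted p 0.014) and Mrpl28 (0.90, adjusted p 0.015) completed the 6 smallest p-values. The BAT lags of Mrps28, Mrps31 and Mrpl28 were 12, 2 and 10 h. Those 6, with Mrps25 and Mrps34, passed whichever of the 35 libraries was left out. The count was 8 without BAT ZT9 replicate 3, 9 without BAT ZT21 replicate 3, 10 without BAT ZT9 replicate 2 or WAT ZT21 replicate 1 and 11 without BAT ZT21 replicate 1. It was 12 without WAT ZT9 replicate 2, 13 without BAT ZT1 replicate 2 or WAT ZT21 replicate 3, 42 without WAT ZT9 replicate 3 and 48 without the 3 WAT libraries high in ribosomal RNA loci. Genes called over the whole table were 5.21% without BAT ZT9 replicate 3, 27.6% without WAT ZT9 replicate 3 and 33.3% without the 3 WAT libraries. Of the 22 members called in WAT, 20 had a fitted BAT peak within 3 h of ZT12. Such a peak was found for 40 of all 78 members (51.3%) and for 30.7% of all genes tested in BAT. With the share of ribosomal RNA loci as a covariate it was found for 26 of 78 members. The same share among all genes called in WAT was not counted.

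**Figure D5:**
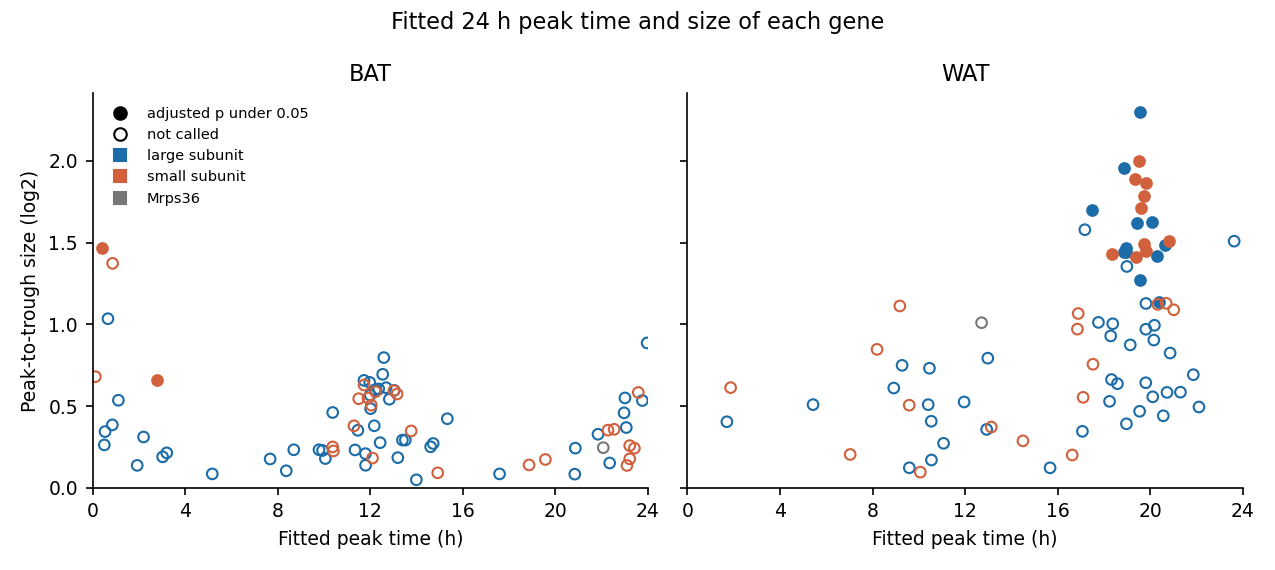
Fitted peak time (x axis, h) and peak-to-trough size (y axis, log2) of each of the 78 genes in BAT (left) and WAT (right); filled points have an adjusted p under 0.05 and colours give the subunit. The 22 filled WAT points lie between 17.5 and 20.8 h, and the open BAT points gather near 12 h and near 0 h.

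The calls among other genes of mitochondrial translation in WAT all had a dark-phase peak. Aurkaip1 (size 1.82) was the 1 of 5 mitochondrial ribosomal proteins with other symbols, and the elongation factor Tsfm (2.19) the 1 of 11 translation factors. Assembly factors gave 4 of 22 (Dhx30, Trub2, Mettl17 and Noa1), aminoacyl-tRNA synthetases 1 of 16 (Ears2) and transcription and RNA genes 2 of 14 (Lrpprc and Slirp). Insertion and quality control gave 3 of 12 (the chaperones Hspe1 and Hspa9 and the protease Spg7), and biogenesis regulators 0 of 10. The respiratory chain gave 16 of 81, all with a dark-phase peak, and cytosolic ribosomal proteins 21 of 80, 19 of them with one. Of all genes called in WAT 894 peaked in the dark and 363 in the light phase. Whether the ribosomal proteins differ from these lists was not tested.

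A component of 12 h was tested on top of the 24 h curve, since cycles of that length are known of some mitochondrial genes in mouse liver. In BAT 12 of 12394 genes (0.0968%) and 0 members were called by edgeR, and in WAT 0 of 12703 genes (0) and 0 members. At an unadjusted p under 0.05 there were 8 members in BAT, beside 14.9% of all genes, and 9 in WAT, beside 11%. DESeq2 called 1 member in BAT and 3 in WAT. The lowest adjusted p-values by edgeR in BAT were those of Mrps36 (size 0.53, adjusted p 0.23), Mrpl19 (0.38, 0.26) and Mrps2 (0.57, 0.26), and in WAT those of Mrpl17 (1.67, 0.19), Mrpl18 (1.5, 0.21) and Mrpl49 (1.54, 0.22). The last 3 are the large-subunit genes with the lowest depot differences.

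The authors' deposited rhythm tables gave other calls. In the authors' deposited table for BAT 6 members had a JTK q-value under 0.05, beside 4.33% of 14055 genes: Mrps6 (0.019), Mrpl55 (0.023), Mrpl45 (0.033), Mrpl22 (0.038), Mrpl18 (0.043) and Mrps18b (0.043). Mrps6 is the 1 member that both tests called. In the authors' deposited table for WAT 0 members passed, and 17 of 12541 genes did (0.136%); the lowest member q-value there was that of Mrpl12 (0.080). All 22 members that the cosine test called in WAT had a JTK lag between 16 and 22 h in that table. Such a lag was listed for 41 of all 78 members and for 2728 of the 12541 genes. Both tests used the same libraries, and the 22 were called with fitted peaks between 17.5 and 20.8 h. Their lags are therefore not a separate readout.

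Accessibility of the promoters was a readout of its own, in other libraries. In BAT 64 ATAC peaks lay within 1 kb of the start site of 57 members, and 4 of them were called rhythmic, where 13.5% of 12542 such peaks were. In WAT 60 peaks at 56 members gave 0 calls, where 6.32% of 10767 such peaks were called, and 5 had an unadjusted p under 0.05. Depth differed here too, with a median of 6179630 tags in peaks per BAT library and 2477264 per WAT library. Both depots had a promoter peak at 53 members, BAT alone at 4 and WAT alone at 3, and 18 members had none in either. The called peaks were small in swing: that of Mrps16 (chr14:20393624-20393774) had a size of 0.17 with a peak at 5.4 h (adjusted p 0.030 by edgeR). The peaks of Mrpl40, Mrpl48 and Mrpl28 had 0.24, 0.28 and 0.35. The median size of member promoter peaks was 0.17 in BAT, beside 0.18 for all promoter peaks, and 0.17 in WAT, beside 0.17. The Mrps16 promoter in WAT had 77.0 to 109 CPM over the 18 libraries, with a size of 0.11 that did not pass (adjusted p 0.67 by edgeR). The 22 members called in WAT RNA thus had no promoter peak called in WAT.

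BMAL1 peaks from inguinal fat at ZT4 lay within 1 kb of the start site of 41 members (52.6%), beside 41.8% of the 12703 genes tested in WAT. Members were matched to peaks by gene ID or symbol, and all genes by gene ID only. Of the 22 members called rhythmic in WAT, 13 had such a peak. Peak scores are the authors' own and rank peaks within their list. They ran over 3.77 to 17.1 at members, with a median of 6.5, beside 6.68 for all peaks within 1 kb. Mrpl48 had the highest (17.1, rank 321 of 10368 peaks), followed by Mrpl54 (11.6), Mrpl44 (11.5) and Mrps16 (11.1, chr14:20393581-20393793). Mrpl12 had 7.87 (chr11:120484593-120484805) and Mrps15 4.96 (chr4:126046978-126047190). The printed stretches of Mrpl12 and Mrps16 thus run into a BMAL1 peak, and neither contains CACGTG, the E-box that BMAL1 is known to bind.

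Promoter windows of 300 bases were found in RefSeq (GRCm38.p6) for 69 members, in 75 windows, and searched on both strands. The NRF1 site, of which the printed Mrpl12 match is 1 form, was found in 17.3% of member windows and 4.60% of all windows, ETS (ACTTCCGG) in 16% and 3.89%, YY1 (AAGATGGC) in 16% and 2.75%, and SP1 (GGGCGG) in 52% and 35.7%. The E-box (CACGTG) was found in 9.33% and 7.15%, CRE (TGACGTCA) in 2.67% and 1.79%, ERR (TNAAGGTCA) in 0% and 1.28%, and the TATA box (TATAAA) in 6.67% and 13.6%. Median GC content was 58.7% in member windows and 52.7% in all. These matches are letters in a window, and no test was made of them.

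Many members have the start site of a neighbour on the opposite strand close to their own. A start site of another gene on the other strand lay within 1 kb on either side in 27 of 69 members (39.1%) and in 15.8% of all genes with a window. Not all of these are shared promoters. The start sites of Twnk and Rab6a lie inside Mrpl43 and Mrpl48, 779 and 715 bases from the start sites of those members. The stretches between 2 such start sites are printed for Mrps12 and Sars2, the mitochondrial seryl-tRNA synthetase (chr7:28741822-28741967, strand of Mrps12), and for Mrps11 and Mrpl46, 1 protein of each subunit (chr7:78783090-78783130, strand of Mrps11), with SP1 matches in capitals.
Mrps12 and Sars2: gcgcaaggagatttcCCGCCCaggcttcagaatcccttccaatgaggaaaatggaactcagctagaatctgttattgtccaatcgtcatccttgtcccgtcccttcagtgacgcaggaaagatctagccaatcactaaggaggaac
Mrps11 and Mrpl46: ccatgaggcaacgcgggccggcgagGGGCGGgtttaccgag

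Sars2 rose in BAT as Mrps12 did (1.92 ± 0.25 and 1.33 ± 0.22 on the log2 scale), while in WAT Mrps12 was called rhythmic and Sars2 was not (size 0.76, adjusted p 0.80 by edgeR). Mrps11 and Mrpl46 rose in BAT by 1.71 ± 0.17 and 1.60 ± 0.14, and both were called in WAT, with sizes of 1.45 and 1.44 and peaks at 19.8 and 18.9 h. Of 21 tested neighbours that are not members, 7 rose in BAT, 1 fell and 2, Cyb5rl and Ndufb5, were called in WAT. The counting did not state whether strand was used, and where such genes overlap their reads could be assigned to either.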

How the data were processed

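RNA was measured as RSEM expected counts per gene, which the authors deposited in 1 table for 35 libraries. Reads were aligned to mm10 with STAR 2.7.5 and counted with RSEM 1.3.0, per the submitters' processing notes, and HOMER, Bowtie2 2.4.1, DESeq2 and limma are also named there. The prep kit keeps strand, per the labels' protocols, but whether counting used it is not given in those sources. The authors also deposited TPM values, JTK p-values and q-values with a peak lag in hours, ATAC peaks with raw tag counts per library, and a BMAL1 peak list with a score and normalized tag signal per peak. BMAL1 peaks were called on the 2 libraries as 1 deposited list, and the input library was not used here. Of the columns with counts 1 matched no listed sample and was not used.

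Here 58620 non-whole expected counts were rounded, scaled by TMM and filtered with filterByExpr in edgeR 4.0.16 (R 4.3.3, limma 3.58.1); all 78 members passed in every fit. The tests were quasi-likelihood tests with Benjamini-Hochberg adjustment over all genes or peaks tested, at an adjusted p under 0.05 and, between depots, a fold of at least 2. DESeq2 1.42.0, other scalings, no filter, a replicate block, covariates and leaving out each library were alternatives. The tests were run first on simulated counts with known changes. Gene coordinates, symbols and promoters came from RefSeq tables (GRCm38.p6), and tables and figures were made with Python 3.11.15. The lowest chi-square per degree of freedom between replicate libraries was 9.12, so none was counted as a duplicate. Correlations of library content used 100000 permutations, two-sided.

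Members and gene lists were chosen with earlier results of these data known. Genes named for the depot difference are the 8 members with the largest and the 4 with the lowest log2 difference and all lower in BAT; for each rhythm test, the 6 called members with the smallest p, or 3 if none was called; for levels, the 5 highest and 3 lowest in median TPM; 14 members of known role whatever their values; and from each gene list the 2 largest and the lowest difference. Genes called in a list, and the neighbours, were named after their values were seen, as was Mrps25 in the pattern of ZT17 and ZT21.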

Additional observations from a re-analysis of the deposited data

Results flagged for a closer look

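The 24 h curves of 21 members differed between BAT and WAT by edgeR's test of the interaction of depot and time, which is why they are listed here. For the 6 with the smallest p, the gap between both fitted curves had an amplitude on the log2 scale of 0.96 for Mrps15, 0.99 for Mrps16, 0.95 for Mrps28, 1.17 for Mrpl12, 0.92 for Mrps31 and 0.90 for Mrpl28. In each, the fitted size was smaller in BAT than in WAT. The median size over all genes tested was also smaller in BAT (0.49) than in WAT (0.98). The share of mitochondrially encoded genes and the summed adipocyte markers moved with time in WAT, as given above. Their part in these differences was not tested. The share of ribosomal RNA loci moved with time in BAT. An alternative fit of the difference held this share as a covariate, with a common slope for both depots, and its calls are not given here.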

How the results depend on the processing

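Between depots, 65 to 71 members were called higher under the other settings, 66 to 69 when each library was left out, and 69 with a replicate block. Without the filter on low counts 11706 genes were called (4049 higher and 7657 lower in BAT, against 2541 and 2663 with it), and the median of all genes shifted by 0.23 on the log2 scale. At any fold 8272 genes were called, and 2 members lower. Signs turned for Mrps5 without the filter (0.057) and for Mrpl18 with time left out (−0.074), neither of them called.

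The rhythm counts depended more on the processing, and the causes were not tested. In BAT, members called numbered 12 by DESeq2, 6 without the filter and 1 with the mitochondrial share or the ribosomal RNA share as a covariate, with a replicate block or with time as a factor. Genes called in BAT numbered 2465 by DESeq2, 1754 without the filter, 459 with the ribosomal RNA share and 617 with time as a factor. In WAT, members called numbered 13 with DESeq2 size factors or without mitochondrial and ribosomal RNA loci, 7 with the mitochondrial share and 36 without the 3 libraries high in ribosomal RNA loci. Genes called in WAT numbered 2106 by DESeq2, 615 with the mitochondrial share, 3046 without the filter and 2689 without those 3 libraries. The depot difference in rhythm was called for 48 members and 3641 genes without those libraries, for 2690 genes by DESeq2 and for 2156 without the filter. Leaving out each library gave 1 to 35 members and 460 to 3383 genes in BAT, 6 to 33 and 472 to 2519 in WAT, and 8 to 42 and 571 to 3015 for the difference. With 1 library left at BAT ZT17, that library was taken to vary like the others.

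For the 12 h component DESeq2 called 1 member and 294 genes in BAT and 3 members and 347 genes in WAT; without the filter these were 3 and 1034 in BAT and 3 and 377 in WAT. Leaving out each library gave 0 members and 0 to 66 genes in BAT, and 0 to 3 members and 0 to 146 genes in WAT, where the upper values came without ZT13 replicate 3. The called BAT promoter peaks of members numbered 2 with DESeq2 size factors and 0 to 6 of 64 when each library was left out, against 0 to 2 of 60 in WAT. Over all peaks, leaving out each library gave 6105 to 8236 calls in BAT and 3240 to 4068 in WAT. With all libraries these were 8053 of 42572 peaks in BAT (18.9%) and 3968 of 25050 in WAT (15.8%). With BMAL1 peaks at or above the median score only, 26 members (33.3%) had a peak, beside 26.5% of the 12703 genes tested in WAT.

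Replicate numbers were not used as pairs in the main fits. Over 17 pairs of same-numbered BAT and WAT libraries the deviations correlated at −0.36 to 0.27, and 2 pairs were over 0.1. Such correlations cannot tell whether the libraries of a pair came from the same mouse. Across times, 19 of 40 same-numbered BAT pairs (up to 0.47) and 15 of 45 WAT pairs (up to 0.46) were over 0.1. With a replicate block the calls were 1 member in BAT, 22 in WAT and 23 for the difference, 0 genes in BAT and 16 in WAT for the 12 h component, and 1 member promoter peak in BAT. The share of all genes called for the 24 h rhythms and their difference with this block is not given here. These member counts therefore stand without a background. Covariates and the removal of the 3 libraries were chosen after seeing the data. Depth limits WAT most, where Mrps22 and Mrps27 reached 0 counts.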

Other observations

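The large-subunit members, summed, had 2.18 ± 0.09 times the CPM of the small-subunit members in BAT (SD, n = 17). In WAT the ratio was 2.81 ± 0.32 (SD, n = 18). Abundant members weigh most in such sums. Mrpl17 alone had a mean of 320 CPM over BAT libraries and 623 CPM over WAT libraries. By contrast, 45 of 51 large-subunit genes were called higher in BAT. Gene by gene, the median log2 differences between depots were alike, 1.78 for the large and 1.77 for the small subunit. Within WAT the mean ratio was lowest at ZT1 (2.38 ± 0.15) and highest at ZT17 (3.09 ± 0.14, SD, n = 3 each). How far single genes set the ratio was not tested. A fitted WAT peak between ZT16 and ZT22 was found for 53 of 78 members, beside 3838 of 12703 genes tested. Within 3 h of ZT12 there were 16 members and within 3 h of ZT0 there were 7. Mrps36 and Mrps6 were among the members with a fitted WAT peak away from ZT17 to ZT21, at 12.7 and 1.87 h, and neither was called.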
